A study of Homo sapiens with 17 samples.

Results

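The heat shock proteins and J-domain co-chaperones were taken as the protein-coding genes (PCGs) whose symbols begin with HSP followed by A, B, D, E, H or a digit, or with DNAJA, DNAJB or DNAJC. No measured value entered the rule, which found 64 genes among the 13473 PCGs in the table of 18869 genes. An average TPM was given for 63 of them, and 51 reached a TPM of 5 in each of the immunoprecipitations (IPs), as did 9607 PCGs. The other 13 lay below this filter and are described last. Among the 64 are 4 genes that share the name pattern without being heat shock proteins: HSPBP1, HSPBAP1, HSPB11 and the readthrough gene HSPE1-MOB4.

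Ribosome contact and association with poly(A)-binding proteins were measured in HEK293T cells, an established line of human embryonic kidney origin, carrying a doxycycline-inducible lentiviral construct. RPS2-STAMP cells (9 samples, 3 for each of Input, PABPC IP and PABPN IP) expressed RPS2, a protein of the small ribosomal subunit, joined to APOBEC1, an enzyme that turns C into U in RNA. Control-STAMP cells (8 samples, 3 for Input, 2 for PABPC IP and 3 for PABPN IP) expressed APOBEC1 alone. In all 17 samples the construct was induced for 24 h with 50 ng/ml doxycycline, and cells were crosslinked with 0.1% formaldehyde. The cytoplasmic poly(A)-binding protein PABPC or its nuclear counterpart PABPN was then precipitated. By the paper's account, these IPs used only the cytoplasmic part of fractionated cells.

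Editing was expressed as normalized EPKM, the edits in RPS2-STAMP scaled by transcript length and library size, less those in Control-STAMP, and RNA level as average TPM, a quantity per length. Each gene has 1 value per fraction, pooled over replicates, so no SD, n or test accompanies any value, and a difference between fractions could not be set against the spread between replicates. Neither reads nor edits were given as counts. The methods summarise sequencing depth for all STAMP libraries together, but the edits behind each value are unknown, so no interval was given and values of 0 were not bounded. EPKM is scaled by the reads of the library and not by the RNA level of the gene, so main values and counts are also given per TPM. TPM here sums exonic and intronic reads, so it is not a level of spliced RNA alone.

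Heat shock proteins are molecular chaperones that help other proteins fold, assemble, cross membranes and escape aggregation. HSP70 proteins bind and release clients in an ATP cycle that J-domain proteins start and nucleotide exchange factors complete, and HSP90 takes over many partly folded clients. In stressed cells the transcription factor HSF1 raises the cytosolic and mitochondrial chaperones, while the unfolded protein response raises those of the endoplasmic reticulum (ER). Many are also abundant in unstressed, dividing cells.

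The cell line markers matched the label only in part. Of 8 genes used as HEK293T markers, 5 had an Input TPM of at least 5, led by VIM at 184, while KRT8 stood at 2.16, LHX1 at 0.913 and PAX2 at 0.797. Their summed TPM was 263 in Input, 378 in PABPC IP and 266 in PABPN IP. Of 6 markers of blood, red cells, liver, endothelium and fibroblasts, 1 was in the table, COL1A1, with a TPM of 1.90 in Input, 2.15 in PABPC IP and 4.42 in PABPN IP.

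HSP90AA1 and HSP90AB1, the stress-inducible and the constitutive cytosolic HSP90, and HSPA8, the constitutive cytosolic HSP70, were the most abundant members by Input TPM. HSP90AA1 (ENSG00000080824) lies on the minus strand at chr14:102080742-102139699 in hg38 and has 11 exons in the chosen transcript, HSP90AB1 (ENSG00000096384) lies on the plus strand at chr6:44246166-44253888 with 12 exons, and HSPA8 (ENSG00000109971) lies on the minus strand at chr11:123057489-123063230 with 9 exons. Because APOBEC1 edits cytosines in ribosome-contacted RNA, the last 60 coding bases of each, stop codon included, are shown with every cytosine in capitals, as a view of the editable base in the stretch that encodes the shared chaperone tail. They were read from hg38, on the coding strand, at chr14:102081712-102081771, chr6:44253539-44253598 and chr11:123057734-123057793.
HSP90AA1: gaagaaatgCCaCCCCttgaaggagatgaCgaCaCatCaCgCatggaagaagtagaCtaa
HSP90AB1: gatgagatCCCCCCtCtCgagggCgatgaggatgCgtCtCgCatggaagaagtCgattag
HSPA8: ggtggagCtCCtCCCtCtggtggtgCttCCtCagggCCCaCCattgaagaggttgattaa
These ends hold 13, 14 and 16 cytosines. Over the whole transcript cytosine made up 17.8% of HSP90AA1, 21.6% of HSP90AB1 and 21.6% of HSPA8. Cytosines flanked on both sides by A or U, a context APOBEC1 is known to favour, numbered 78.4 per kilobase in HSP90AA1, 66.1 in HSP90AB1 and 70.7 in HSPA8, so the gene with the lowest cytosine share had the most in this context. The positions of single edits were not used here.

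HSP90AA1 had an EPKM of 0.0519 in PABPC IP and 0.789 in PABPN IP, 15.2-fold more, and was listed at 0 in Input. That PABPN IP value ranked 4 of the 9607 PCGs. HSP90AB1 had an EPKM of 0.507 in Input, 0.388 in PABPC IP and 0.364 in PABPN IP, ranks of 126, 104 and 55. HSPA8 had 0.318, 0.356 and 0.242 in the same order, ranks of 310, 119 and 175. HSP90AB1 and HSPA8 were thus edited in every fraction at levels differing by less than a factor of 1.5 between any pair of fractions. HSP90AA1, in contrast, was edited far more in PABPN IP than in PABPC IP. Its listed 0 in Input was not bounded, so no fold against Input is given.

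The RNA levels of the same genes did not follow that split. The TPM of HSP90AA1 was 243 in Input, 286 in PABPC IP and 239 in PABPN IP. That of HSP90AB1 was 497, 508 and 315, and that of HSPA8 was 416, 489 and 442. The paralogues therefore changed order in editing but not in RNA: HSP90AB1 exceeded HSP90AA1 in TPM 2.05-fold in Input, 1.78-fold in PABPC IP and 1.32-fold in PABPN IP. In EPKM, HSP90AB1 exceeded HSP90AA1 7.48-fold in PABPC IP, and HSP90AA1 exceeded HSP90AB1 2.17-fold in PABPN IP. HSPA8 exceeded HSP90AA1 in EPKM 6.87-fold in PABPC IP and was exceeded 3.26-fold in PABPN IP, although its TPM was higher in each fraction, 1.72-fold in Input, 1.71-fold in PABPC IP and 1.85-fold in PABPN IP. HSP90AA1 overlaps the gene WDR20 in GENCODE release 44. The annotation used for TPM came from an earlier release and had overlapping regions taken out, and the part of the overlap in the EPKM of HSP90AA1 was not tested.

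**Figure D1:**
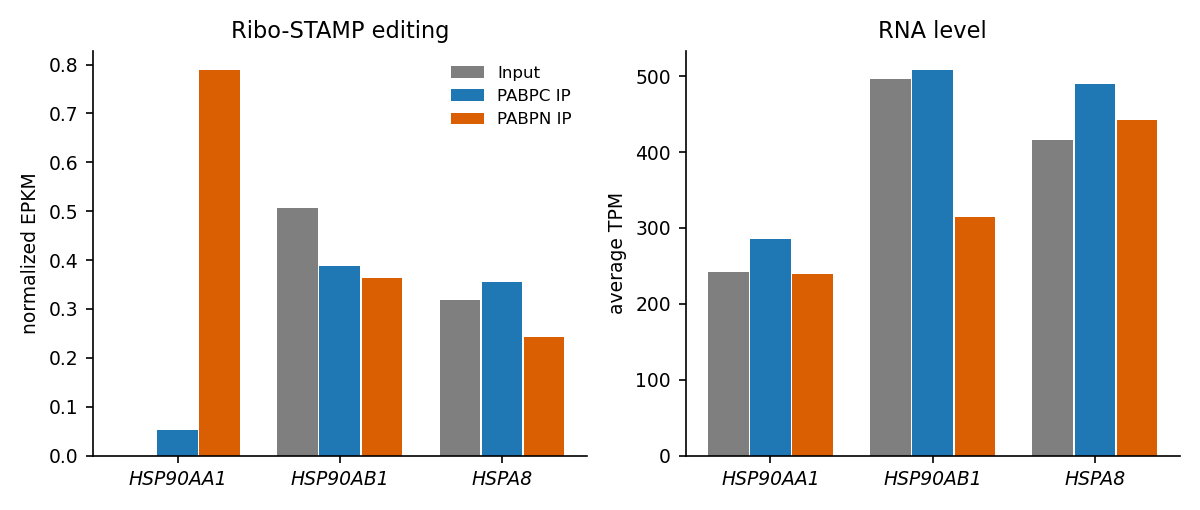
Normalized EPKM (left) and average TPM (right) of HSP90AA1, HSP90AB1 and HSPA8 in Input, PABPC IP and PABPN IP, each bar a single pooled value with no error bar. The EPKM of HSP90AA1 runs from a listed 0 in Input to 0.789 in PABPN IP while its TPM stays between 239 and 286.

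Dividing EPKM by TPM set editing against the RNA present. Per 100 TPM, HSP90AA1 had an EPKM of 0.0182 in PABPC IP and 0.330 in PABPN IP. HSP90AB1 had 0.102 in Input, 0.0763 in PABPC IP and 0.115 in PABPN IP, and HSPA8 had 0.0763, 0.0728 and 0.0547. On this scale too the editing of HSP90AA1 was the most uneven of the 3, and in PABPC IP all 3 lay below the member median of 0.0897.

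Members that stress responses raise have known promoter motifs, recognised by HSF1 or by factors of the unfolded protein response. In RefSeq promoters (GRCh38.p14, 250 bases before to 50 after each start), available for 58 of the 64 members, the heat shock element was searched as GAANNTTCNNGAA, or TTCNNGAANNTTC on the other strand. A match stood in 6 of the 58 (10.3%), namely DNAJA1, DNAJB6, HSP90AA1, HSP90AB1, HSPA8 and HSPD1, and in 166 of all 27305 genes with a promoter (0.608%). The ER stress element, searched as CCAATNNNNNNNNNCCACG or CGTGGNNNNNNNNNATTGG, stood in HSP90B1 and HSPA5, 3.45% of the members, and in 25 of all genes (0.0916%). The motifs fell in different members, so no matches of both overlapped, and HSP90AB1, HSPA8 and HSP90B1 held 2 matches each and HSPD1 2 that overlap. Most members listed as inducible had no such match found. Among those listed for HSF1 these were HSPA1A, HSPA1B, HSPH1, DNAJB1, HSPB1 and HSPE1. Among those listed for the unfolded protein response they were DNAJB9, DNAJB11, DNAJC3, DNAJC10 and HSPA13. A match in each of the 3 example genes and in both ER genes is shown on the gene's strand with the match in capitals, at chr14:102087105-102087147 (minus), chr6:44247816-44247858 (plus), chr11:123062164-123062206 (minus), chr12:103930306-103930354 (plus) and chr9:125241376-125241424 (minus), since these are the examples and the ER genes most edited in PABPN IP.
HSP90AA1: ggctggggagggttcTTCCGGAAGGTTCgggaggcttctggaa
HSP90AB1: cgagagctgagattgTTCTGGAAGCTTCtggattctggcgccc
HSPA8: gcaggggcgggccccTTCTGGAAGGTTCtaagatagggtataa
HSP90B1: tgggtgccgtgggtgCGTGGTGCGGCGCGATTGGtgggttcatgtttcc
HSPA5: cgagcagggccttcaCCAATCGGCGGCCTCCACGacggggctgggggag
The match in HSP90AA1 spans bases 88 to 76 before the start, and that in HSPA8 bases 55 to 43. HSP90AA1, HSP90AB1 and HSPA8 thus all hold a heat shock element match, and any relation of the motif to editing was not tested. A match is a description of these letters in this window, and no factor binding was measured.

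Across the 51 members past the filter, editing was spread over all fractions. The median EPKM was 0.0324 in Input (quartiles 0.0136 and 0.0862), against 0.0273 over the 9607 PCGs. It was 0.0476 in PABPC IP (quartiles 0.0119 and 0.0677), against 0.0501, and 0.0522 in PABPN IP (quartiles 0.0129 and 0.0999), against 0.0334. The members' median lay above that of the PCGs in Input and PABPN IP and slightly below it in PABPC IP, where the order reversed over all listed genes (0.0293 for 64 members, 0.0277 for 13473 PCGs). Median TPM of members was 18.0 in Input, 35.7 in PABPC IP and 35.8 in PABPN IP, against 15.8, 28.9 and 38.4 over PCGs. Per 100 TPM the median EPKM of members was 0.178 in Input, 0.0897 in PABPC IP and 0.106 in PABPN IP, against 0.161, 0.138 and 0.0704.

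Editing above 0 was recorded for 44 members in Input (78.1% of PCGs), 40 in PABPC IP (82.6% of PCGs) and 39 in PABPN IP (72.9% of PCGs). It was above 0 in all 3 fractions for 26 members (50.5% of PCGs), and 0 members were at 0 in all 3 (2.07% of PCGs). The highest EPKM of a member fell in Input for 16 (26.6% of PCGs), in PABPC IP for 16 (42.6% of PCGs) and in PABPN IP for 19 (28.7% of PCGs). Peaks of editing were thus shared almost evenly among the fractions, where over PCGs PABPC IP took the largest share.

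Between the IPs, folds were taken on log2(EPKM + 0.01). At least 2-fold higher editing in PABPC IP was seen for 13 of the 51 members (25.5%, against 36.3% of PCGs), and at least 2-fold higher editing in PABPN IP for 17 (33.3%, against 21.1% of PCGs). The median log2 difference, PABPC IP less PABPN IP, was -0.20 for members and 0.32 for PCGs. The members thus leaned to PABPN IP, and the PCGs to PABPC IP. Of the 13, all but DNAJC10, DNAJC6 and HSPBP1 were listed at 0 in PABPN IP. Of the 17, DNAJC2, DNAJC3, DNAJC7, DNAJC11, DNAJC12, DNAJC18, HSPA9, HSPB1 and HSPBAP1 were listed at 0 in PABPC IP. Both counts rest on the small constant added: with 0.1 in its place they were 2 and 5. The shares of PCGs with 0.1 were not counted, so these have no background beside them. Both counts were also taken with EPKM + 0.01 divided by TPM, a scale added after seeing the data. There 19 members were at least 2-fold higher in PABPC IP and 17 in PABPN IP, against 44.0% and 18.6% of PCGs. A gene at 0 in both IPs can pass on this scale through TPM alone. DNAJC1 did so, with an uncentred log2 TPM ratio of PABPC IP to PABPN IP of -1.07. On that scale the median log2 difference was 0.39 for members and 0.70 for PCGs, so the counts of members no longer leaned to PABPN IP, while their share higher in PABPN IP (33.3%) still lay above that of PCGs. Without the constant, the IP with the higher EPKM was the same per TPM for 20 of the 23 members higher in PABPC IP (92.4% of such PCGs). DNAJC19, HSP90AB1 and HSPE1 were the exceptions. It was the same for 21 of the 26 higher in PABPN IP (80.4% of such PCGs), and DNAJB14, DNAJC13, DNAJC16, HSPA4L and HSPH1 turned. Across members the EPKM of the IPs correlated weakly (Spearman rho 0.19, n = 51), as it did across PCGs (0.19), over points that share the libraries and the subtraction.

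**Figure D2:**
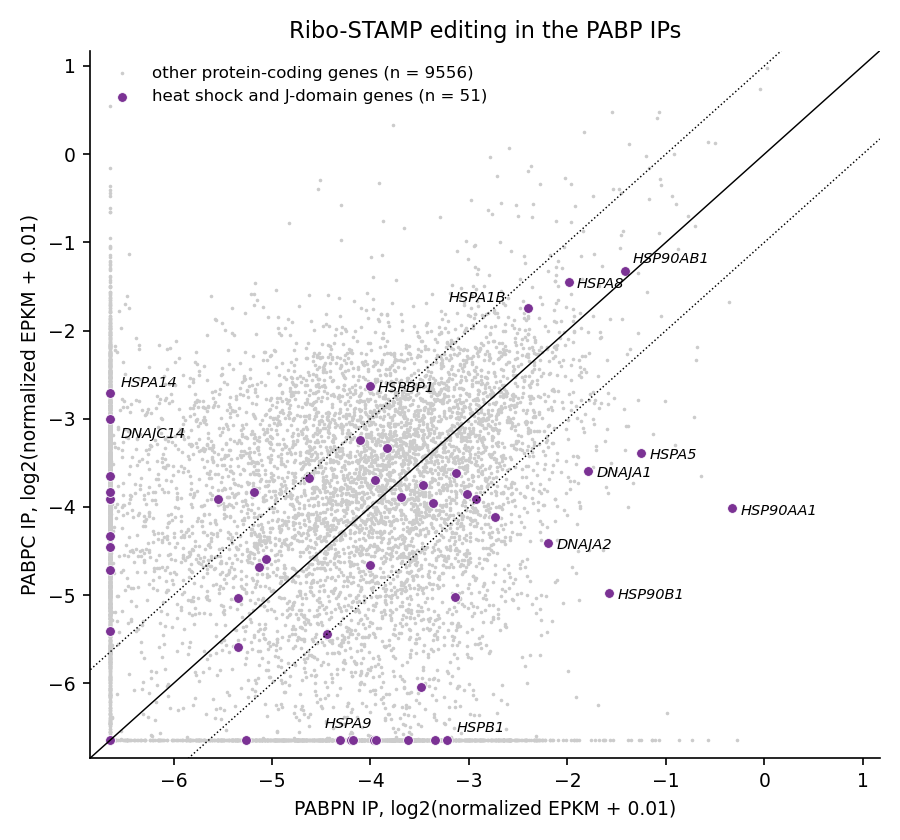
Editing in PABPN IP (x axis) and PABPC IP (y axis) as log2(normalized EPKM + 0.01), for the 51 heat shock and J-domain genes past the filter (purple) and the other PCGs (grey), with lines at equality and at 2-fold. HSP90AA1, HSPA5, HSP90B1, DNAJA1 and DNAJA2 lie far to the right of the 2-fold line, and genes listed at 0 in an IP form the row and column at the edges.

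**Figure D3:**
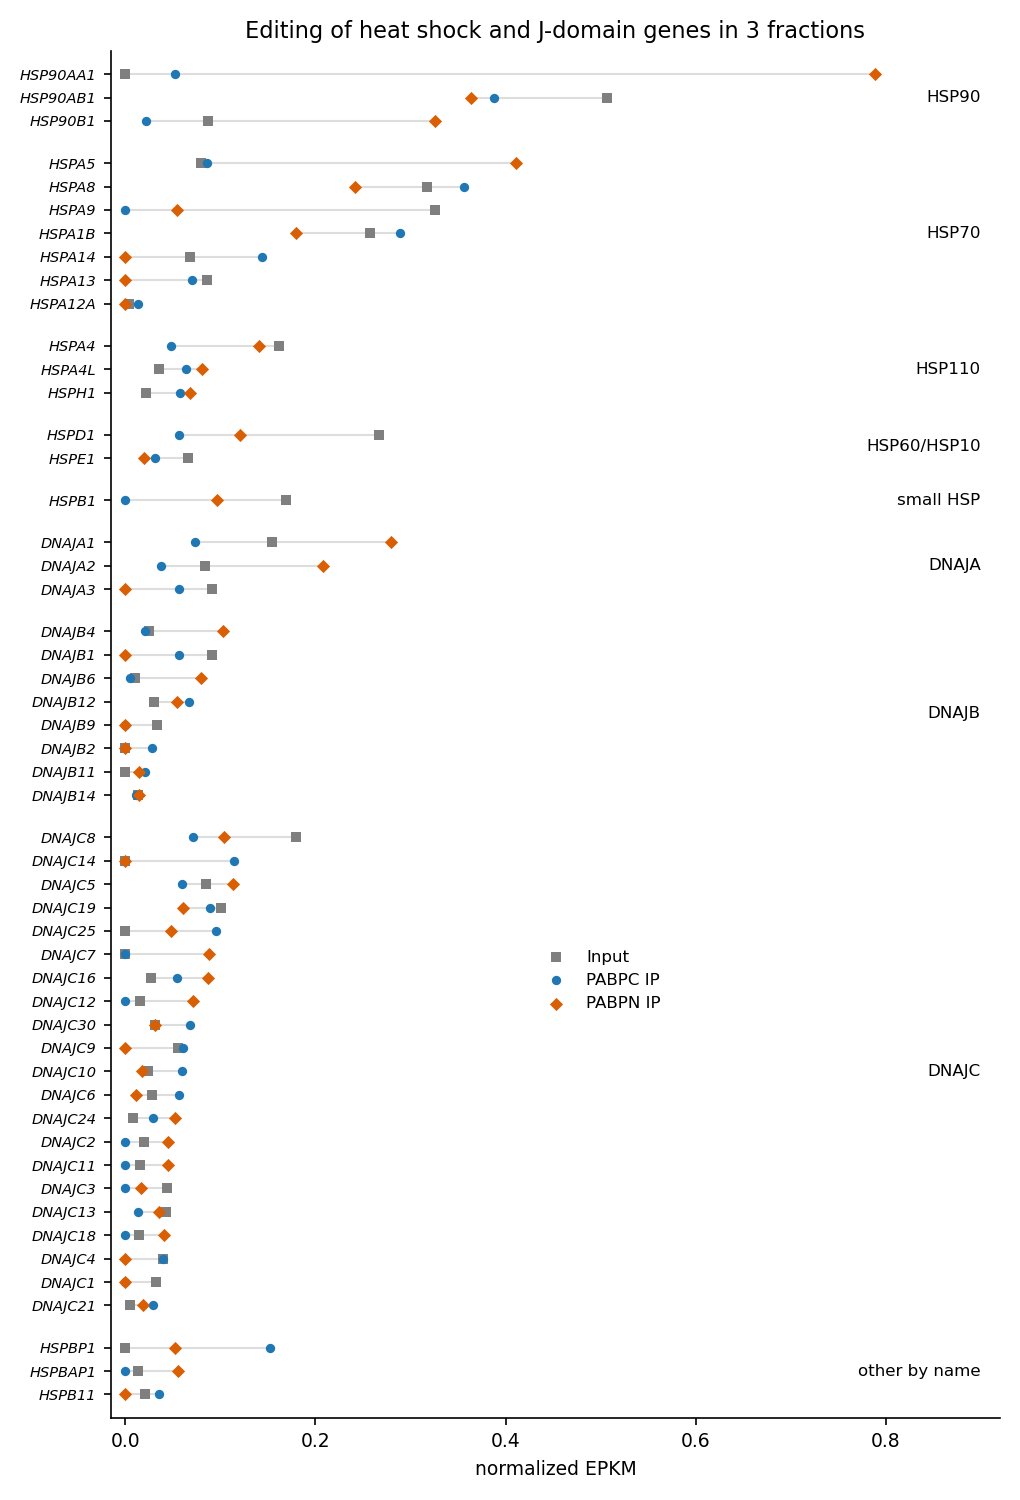
Normalized EPKM of each of the 51 members in Input (grey squares), PABPC IP (blue circles) and PABPN IP (orange diamonds), grouped by family, with a line from lowest to highest value. Single pooled values are drawn, and HSP90AA1 in PABPN IP, at 0.789, is the highest of all.

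Among the HSP90 proteins, the ER paralogue HSP90B1 (ENSG00000166598), which folds secreted and membrane proteins, resembled HSP90AA1 more than HSP90AB1. Its EPKM was 0.0869 in Input, 0.0218 in PABPC IP and 0.326 in PABPN IP. Its TPM, however, was also higher in PABPN IP, at 109, than in Input (32.1) or PABPC IP (35.7). Set against TPM, its EPKM per 100 TPM was 0.271 in Input, 0.0610 in PABPC IP and 0.300 in PABPN IP, so relative to RNA the low value was that of PABPC IP. Of the 3 HSP90 genes of the name rule, 2 were thus edited at least 2-fold more in PABPN IP (21.1% of PCGs). None of the 3 showed the reverse (36.3% of PCGs). TRAP1, the mitochondrial HSP90 outside the rule, did, with an EPKM of 0.231 in PABPC IP and 0.0254 in PABPN IP. HSP90B1 overlaps the gene UQCC6.

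Of the HSP70 proteins, 7 of 10 listed genes passed the filter, and 3 were edited at least 2-fold more in PABPC IP and 2 in PABPN IP (36.3% and 21.1% of PCGs). HSPA5 (ENSG00000044574, the ER HSP70 known as BiP) had an EPKM of 0.0791 in Input, 0.0858 in PABPC IP and 0.411 in PABPN IP, at TPM values of 46.9, 52.6 and 66.8. Its 0.615 EPKM per 100 TPM in PABPN IP was the highest of the 51 members. HSPA9, the mitochondrial HSP70, stood at 0.325 in Input and 0.0541 in PABPN IP and was listed at 0 in PABPC IP, though its TPM was level, at 66.3 in Input, 71.1 in PABPC IP and 76.4 in PABPN IP. The ER and the mitochondrial HSP70 thus showed opposite patterns between PABPN IP and Input.

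HSPA1B, a stress-inducible cytosolic HSP70, had an EPKM of 0.257 in Input, 0.289 in PABPC IP and 0.180 in PABPN IP, at TPM values of 168, 146 and 221. Its order of fractions in EPKM was that of HSPA8, but per 100 TPM it stood at 0.198 in PABPC IP and 0.0813 in PABPN IP, a wider gap than for HSPA8. Its near-identical neighbour HSPA1A had a TPM of 0.735 in Input, and how reads were divided between the pair is uncertain. HSPA14, which works with the ribosome-associated J-domain protein DNAJC2, had 0.0684 in Input and 0.143 in PABPC IP and was listed at 0 in PABPN IP. HSPA13, a distant HSP70 of the ER, was likewise listed at 0 in PABPN IP, with 0.0855 in Input and 0.0697 in PABPC IP. HSPA14 and HSPA13 leaned away from PABPN IP, unlike HSPA5.

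The HSP110 proteins are nucleotide exchange factors of HSP70. For HSPA4 the EPKM was 0.162 in Input, 0.0476 in PABPC IP and 0.140 in PABPN IP. It was the only 1 of the 3 in the name rule past 2-fold (21.1% of PCGs on the PABPN side). HYOU1, the ER HSP110 outside the rule, was also past 2-fold, with 0.0511 in Input, 0.0608 in PABPC IP and 0.140 in PABPN IP. HSPH1 had 0.0217, 0.0577 and 0.0675 in the same order, at TPM values of 30.9, 31.8 and 48.1. Per 100 TPM its order between the IPs turned, with 0.182 in PABPC IP and 0.140 in PABPN IP, as did that of HSPA4L, with 0.607 and 0.390. The mitochondrial chaperonin HSPD1 (HSP60) had an EPKM of 0.267 in Input, 0.0567 in PABPC IP and 0.121 in PABPN IP, while its partner HSPE1 (HSP10) had 0.0663, 0.0316 and 0.0199. Both chaperonin genes, which lie head to head and overlap in the annotation, were thus edited most in Input. The small heat shock protein HSPB1, which holds unfolded proteins without ATP, had 0.169 in Input and 0.0968 in PABPN IP and was listed at 0 in PABPC IP, where its TPM was highest (142, against 55.2 in Input and 51.3 in PABPN IP).

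The J-domain proteins start the ATP cycle of HSP70 and bring it clients. DNAJA1, a main cytosolic partner of HSPA8, had an EPKM of 0.154 in Input, 0.0729 in PABPC IP and 0.279 in PABPN IP. DNAJA2, its close relative, had 0.0836, 0.0372 and 0.208 in the same order. Both therefore peaked in PABPN IP. DNAJB1, the inducible cytosolic HSP40, had 0.0909 in Input and 0.0567 in PABPC IP and was listed at 0 in PABPN IP, although its TPM there was 102. These cytosolic partners of HSP70 were thus split between the IPs.

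In the DNAJC class, the most varied of the family, 21 of 27 listed genes passed the filter, with 5 at least 2-fold higher in PABPC IP and 6 in PABPN IP (36.3% and 21.1% of PCGs). DNAJC8, a splicing-associated J-domain protein, was the most abundant, and its EPKM was 0.180 in Input, 0.0716 in PABPC IP and 0.104 in PABPN IP. DNAJC14, of the ER membrane, had an EPKM of 0.115 in PABPC IP and was listed at 0 in Input and in PABPN IP. Outside the class, HSPBP1, a nucleotide exchange factor of HSP70, had 0.152 in PABPC IP and 0.0522 in PABPN IP and was listed at 0 in Input. Apart from HSPA8 and HSPA1B, the members with the largest excess in PABPC IP thus peaked at a lower EPKM than those with the largest excess in PABPN IP.

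Grouped by compartment, the 14 cytosolic members past the filter included 2 at least 2-fold higher in PABPC IP and 8 in PABPN IP, where the shares of PCGs were 36.3% and 21.1%. The 10 members listed under the ER included 2 and 3, and the 7 mitochondrial members 1 and 2. The other 20 members were placed in none of these compartments by the lists used, among them DNAJC14, HSPA4L and HSPBP1, and 8 of them were higher in PABPC IP and 4 in PABPN IP. On the EPKM scale, PABPN IP outnumbered PABPC IP most clearly in the cytosolic group, with HSP90AA1, DNAJA1, DNAJA2, HSPA4 and HSPB1 among the 8. Of the 7 genes induced by the unfolded protein response, 2 were at least 2-fold higher in PABPC IP (HSPA13 and the ER J-domain protein DNAJC10) and 3 in PABPN IP (HSPA5, HSP90B1 and DNAJC3). The ER J-domain protein DNAJB9 was listed at 0 in both IPs, with 0.0336 in Input, and DNAJB11 had 0.0206 in PABPC IP and 0.0145 in PABPN IP. Of the 8 HSF1-inducible genes past the filter, of 9 listed, 1 was at least 2-fold higher in PABPC IP (DNAJB1) and 3 in PABPN IP (HSP90AA1, DNAJA1 and HSPB1). Neither stress program therefore shared a direction of editing among its genes.

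Association with each PABP was taken as the log2 ratio of average TPM between fractions, relative to the median gene. The median PCG was 1.14 higher in PABPN IP than in Input, 0.99 higher in PABPC IP than in Input, and its ratio of PABPC IP to PABPN IP was -0.19. These shifts were subtracted, and a centred ratio past 0.5 was counted in either direction. Most directions relative to Input depend on this centring, as given beside each count.

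For PABPN IP relative to Input, 12 members lay above 0.5 (24.5% of PCGs) and 17 below -0.5 (21.6% of PCGs), and without centring the counts were 37 and 1 (84.6% and 0.583% of PCGs). The 17 included most of the abundant chaperones: HSP90AB1 had the lowest ratio at -1.79, HSP90AA1 stood at -1.16 and HSPA8 at -1.05. Without centring 5 of the 17 were still lower in PABPN IP than in Input (HSP90AA1, HSP90AB1, HSPB1, HSPBP1 and DNAJC8), and the other 12 were higher. HSPA12A, singled out after its values were seen, was the highest at 1.06, and among the abundant members HSP90B1 stood at 0.62. Abundance and this ratio ran opposite: Spearman rho with Input TPM was -0.83 over members (n = 51) and -0.51 over PCGs (n = 9601), where Input TPM is also the denominator of the ratio.

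All 8 HSF1-inducible members past the filter (HSPA1B, HSPH1, DNAJB1, DNAJA1, HSPB1, HSP90AA1, HSPD1 and HSPE1) lay below -0.5 in PABPN IP relative to Input, with a median of -1.04, where 21.6% of PCGs did. This holds relative to the median gene: without centring 2 of the 8 were above 0.5, none below -0.5, and the median was 0.10. The lowest of the 8 was HSPB1 at -1.24, and HSPH1, at -0.501, was nearest the threshold. With a pseudocount of 0.5 TPM, 16 members lay below -0.5 in place of 17. By contrast, of the 7 genes of the unfolded protein response, 1 lay above 0.5 (HSP90B1) and 1 below (HSPA5, at -0.63), with a median of 0.18. Uncentred, all 7 were above 0.5, as were 84.6% of PCGs. The HSF1-inducible genes were also abundant, with a median Input TPM of 104 against 13.9 for the unfolded protein response genes, and the part of abundance in the contrast was not tested.

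For PABPC IP relative to Input, 2 members lay above 0.5 (8.37% of PCGs) and 14 below -0.5 (18.1% of PCGs), and without centring the counts were 36 and 0 (81.3% and 0.885% of PCGs). The 2 above were DNAJC4 at 0.63 and DNAJC19, of the mitochondrial import motor, at 0.58, both named after their values were seen. The lowest were HSPA4L at -1.27, likewise named after its values were seen, and HSPA1B at -1.19, the only members of the 14 that were also lower in PABPC IP than in Input without centring. All 3 HSP90 genes of the name rule were among the 14, at -0.96 for HSP90AB1, -0.84 for HSP90B1 and -0.75 for HSP90AA1. These directions flip without centring. HSP90AA1, HSP90AB1, HSPA1B, HSPA4, HSPA5, HSPA8, HSPA9, HSPD1 and HSPH1 thus lay past -0.5 in both IPs relative to the median gene. Without centring none of them kept this direction in both. The share of PCGs past -0.5 in both IPs was not counted, so this overlap has no background beside it.

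**Figure D4:**
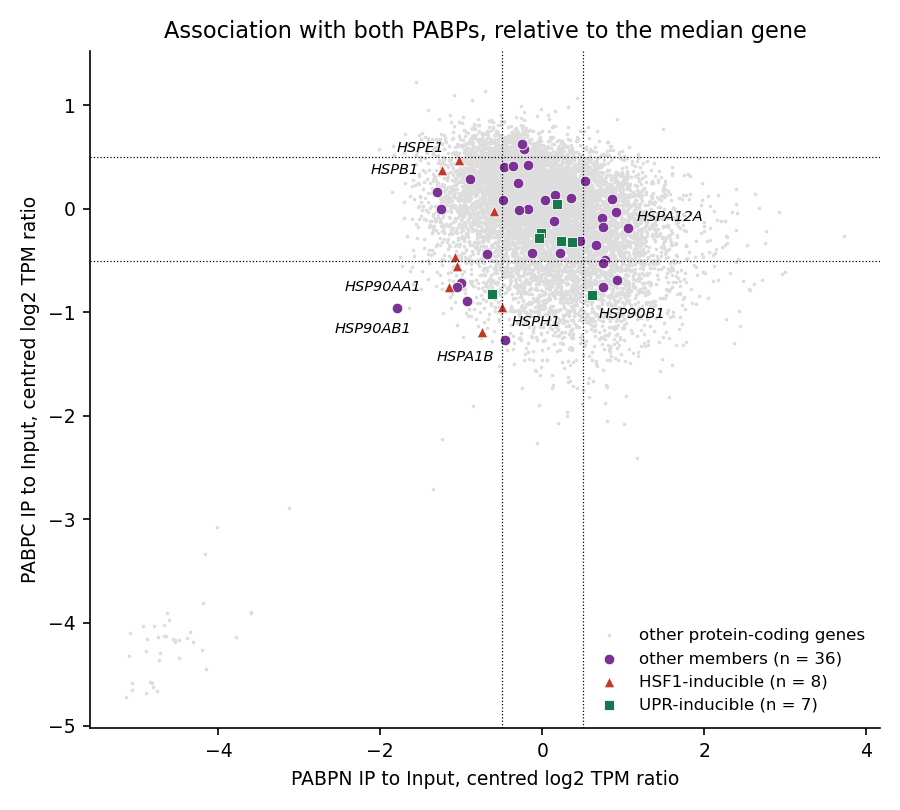
Centred log2 TPM ratios to Input for PABPN IP (x axis) and PABPC IP (y axis), with dotted lines at -0.5 and 0.5, for the other PCGs (grey), HSF1-inducible members (red triangles, 8), members induced by the unfolded protein response (UPR, green squares, 7) and the remaining members (purple). Relative to the median gene the 8 red triangles all lie left of -0.5, a direction that flips for 6 of the 8 without centring, while the green squares spread around 0 on the x axis.

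Directly between the IPs, the centred TPM ratio of PABPC IP to PABPN IP was above 0.5 for 16 members (30.4% of PCGs) and below -0.5 for 15 (31.5% of PCGs), close to the background on both sides. Without centring the counts were 10 and 18 (23.0% and 37.6% of PCGs), and no member of either count changed direction. The highest ratios were those of HSPB1 (1.66), HSPE1 (1.55), HSPBP1 (1.5), DNAJC8 (1.30) and DNAJC12 (1.23), a co-chaperone of amino acid hydroxylases. The lowest were those of DNAJC16 (-1.56), DNAJC13 (-1.46), an endosomal protein, HSP90B1 (-1.41), HSPBAP1 (-1.24) and DNAJB14 (-1.23). The highest thus included the short HSPB1 and HSPE1, and the lowest the ER genes HSP90B1 and DNAJB14. Of the 10 members listed under the ER, 0 lay above 0.5 and 4 below -0.5 (30.4% and 31.5% of PCGs). Uncentred counts were 0 and 5 (23.0% and 37.6% of PCGs), so the counts below -0.5 were near the background. DNAJC14, of the ER membrane but not on that list, lay above, at 0.59.

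Editing and RNA association were only loosely matched. Of the 13 members edited at least 2-fold more in PABPC IP, 8 also had a centred TPM ratio above 0.5 toward PABPC IP, against 35.8% of such PCGs, 4 lay between the thresholds and 1 (HSPA12A) lay below -0.5, against 25.7%. Without centring 4 of the 8 stayed above 0.5, and HSPA13 joined HSPA12A below -0.5, where the shares of such PCGs were 27.4% and 31.3%. Of the 17 edited at least 2-fold more in PABPN IP, 5 had a ratio below -0.5, against 37.5% of such PCGs, 9 lay between and 3 had a ratio above 0.5, as did 505 of the 2024 such PCGs: DNAJA1, DNAJC12 and HSPB1. Without centring the 5 stayed below -0.5 and DNAJA1 fell back between the thresholds. The uncentred shares of such PCGs were 43.6% below -0.5 and 18.9% above 0.5. HSP90AA1, with a ratio of 0.45, and HSPA5, at -0.15, were among the 9. HSP90AB1 stood at 0.88 and HSPA8 at 0.34. Of the 5 members with the largest fall in EPKM from PABPN IP to PABPC IP, HSP90B1 alone had a ratio past -0.5, and of the 5 with the lowest log2 EPKM difference, HSP90B1 and DNAJC7 did. Spearman rho between the TPM ratio and the log2 EPKM difference was 0.20 over members (n = 51) and 0.13 over PCGs, both taken from the same libraries.

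Sequence features that the name rule did not use varied widely among members. The median coding length was 1443 bases, from 309 to 6732, against 1323 over 9601 PCGs with a chosen transcript and a coding region in it. Cytosine made up a median 19.3% of the members' transcripts, from 14.9% to 37.1%, against a median of 23.7% for PCGs, while cytosines flanked by A or U were about as dense, at 65.9 per kilobase against 66.3. The median member thus had a lower cytosine share and a similar density in that context.

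Across members, coding length ran opposite to PABPC association: Spearman rho between coding length and the centred PABPC IP to Input ratio was -0.77 (n = 51), and -0.66 over PCGs (n = 9601). The longer chaperones HSP90AB1, HSPA1B and HSPH1 lay low (without centring only HSPA1B remained below 0) and the short HSPE1 and HSPB1 lay high, at 0.47 and 0.37. Against the ratio of PABPC IP to PABPN IP rho was -0.44 for members and -0.62 for PCGs. Against the ratio of PABPN IP to Input it was 0.028 for members and 0.41 for PCGs, whereas with transcript length in place of coding length it was 0.34 for members and 0.46 for PCGs. Editing itself followed RNA level more than length: rho between EPKM and TPM was 0.66 in Input, 0.52 in PABPC IP and 0.47 in PABPN IP for members, against 0.53, 0.45 and 0.25 for PCGs. In these correlations the points are genes of the same libraries, not replicates. Length enters how EPKM and TPM are computed.

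**Figure D5:**
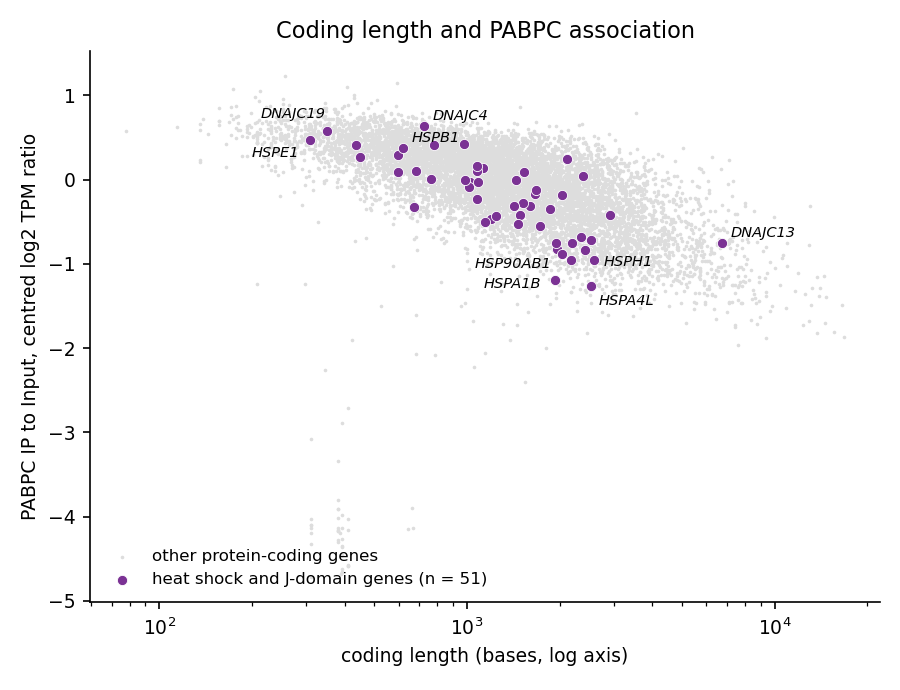
Coding length in bases (x axis, log scale) and the centred log2 TPM ratio of PABPC IP to Input (y axis) for the 51 members (purple) and the other PCGs (grey). Short members such as HSPE1 lie above the median gene and long ones such as HSPH1, at -0.95, below it (a direction that flips without centring for HSPH1), with rho of -0.77 over the 51.

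Genes of the same pathway outside the name rule were set beside the members. They were co-chaperones, HSF1 and HSF2 themselves, and chaperones that the name pattern misses, among them TRAP1, HYOU1 and SERPINH1. Of 29 named, 28 were listed and passed the filter, and 14 were edited at least 2-fold more in PABPC IP and 5 in PABPN IP (36.3% and 21.1% of PCGs), the latter near the background. Their median EPKM was 0.0473 in Input, 0.0631 in PABPC IP and 0.0173 in PABPN IP, and their median log2 EPKM difference was 0.94, against -0.20 for members. Their centred TPM ratio of PABPC IP to PABPN IP was above 0.5 for 14 and below -0.5 for 5 (30.4% and 31.5% of PCGs). Without centring the counts were 9 and 5 (23.0% and 37.6% of PCGs). In PABPN IP relative to Input 1 lay above 0.5 and 15 below -0.5 (24.5% and 21.6% of PCGs). Without centring these became 17 and 0 (84.6% and 0.583% of PCGs). The HSP90 co-chaperones STIP1 and FKBP4, chosen after their values were seen, had an EPKM of 0.127 and 0.0944 in PABPC IP, and in PABPN IP 0.00916 for STIP1 and a listed 0 for FKBP4. Other HSP90 co-chaperones, named on the same footing, went the other way: AHSA1 was listed at 0 in PABPC IP and stood at 0.125 in PABPN IP, CDC37 was listed at 0 and stood at 0.0272, and CHORDC1 had 0.0262 and 0.0797. With EPKM + 0.01 divided by TPM, 12 of the 28 (42.9%) were at least 2-fold higher in PABPC IP, against 44.0% of PCGs. In PABPN IP 3 (10.7%) were, against 18.6%. On that scale the share of these genes on the PABPC side was thus close to the background.

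The genes nearest to HSP90AA1 in their 3 values of log2(EPKM + 0.01) were SLK, RASA1, ARPC1B, RNF19B and RCBTB1, at distances of 1.28, 1.5, 1.54, 1.55 and 1.56. SLK was listed at 0 in Input, with an EPKM of 0.0597 in PABPC IP and 0.322 in PABPN IP, at a TPM of 13.4 in Input. None of the 5 is a member, and each had a lower EPKM in PABPN IP than HSP90AA1.

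The 13 members below the filter were edited too, each with an EPKM above 0 in some fraction. They were DNAJB5, DNAJC15, DNAJC17, DNAJC22, DNAJC27, DNAJC28, DNAJC5G, HSPA12B, HSPA1A, HSPA2, HSPB6, HSPB9 and HSPE1-MOB4. DNAJC27 reached 0.0722 in PABPN IP, at a TPM of 21.7 there and 4.43 in PABPC IP. HSPE1-MOB4, which has no TPM, had 0.0825 in PABPC IP and was listed at 0 in Input and in PABPN IP. These values come from genes with no TPM or a TPM under 5 in at least 1 IP and enter no count above.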

How the data were processed

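Samples were grouped by the labels into RPS2-STAMP and Control-STAMP and into Input, PABPC IP and PABPN IP. The deposited normalized EPKM is a signal that the authors made by aligning to hg38 with STAR, calling C-to-U edits and subtracting the control condition. The deposited TPM is a signal averaged by the authors per fraction, the sum of exonic and intronic TPM from featureCounts 2.0.2. How replicates were pooled, how negative differences were treated and which samples each TPM averages was not found in the methods. Folds used log2(EPKM + 0.01), and TPM ratios were centred on the median PCG. The genes named by rule are the 3 examples and the members highest in Input TPM or in EPKM of each fraction. The rules also took those with the largest rise or fall between the IPs and the highest and lowest PABPC to PABPN ratios. Members of the HSP90, HSP60/HSP10, HSF1 and unfolded protein response lists were named too. Other genes were named within a count or list, as nearest genes, or after their values were seen. Gene positions and lengths came from GENCODE release 44. The members and lists were chosen with earlier results of these data known. Alternatives changed the filter, pseudocount, fold, threshold, centring and summary, and a value within a factor of 1.5 was counted as unmoved (for log2 values, a fold within that factor). The calculations were tested on simulated data with Python 3.11.15, pandas 2.3.3, NumPy 2.4.6, SciPy 1.17.1 and matplotlib 3.10.9. Values of single replicates, edit positions and protein sequences were not used here.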

Additional observations from a re-analysis of the deposited data

How the results depend on the processing

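Of 78 alternative values, 56 stayed within a factor of 1.5 of the reported one and 22 moved, where for log2 values the factor applies to the fold itself. Most are counts or medians, which cannot change sign. Among single members, centring set the direction for 25 of 51 in PABPN IP relative to Input, 31 in PABPC IP relative to Input and 3 between the IPs. The median EPKM of members was 0.0836 in Input with a TPM of at least 20 (0.0540 for PCGs). As a mean it was 0.0742 in Input and 0.0909 in PABPN IP (0.0634 and 0.0520 for PCGs). With every listed member the median was 0.0293 in PABPC IP and 0.0333 in PABPN IP (0.0277 and 0.0199 for PCGs). With a pseudocount of 0.1, 2 members were at least 2-fold higher in PABPC IP and 5 in PABPN IP, and the log2 EPKM difference of HSP90AA1 was -2.55. With a TPM of at least 20, 11 were higher in PABPN IP. Without centring, members above and below numbered 37 and 1 for PABPN IP to Input and 36 and 0 for PABPC IP to Input, and 10 lay above for PABPC IP to PABPN IP. With a threshold of 1 the counts were 1 and 10, 0 and 2, and 5 and 6. The alternatives that follow were added after seeing the data. Leaving out the 19 members whose gene overlaps another gave 7 higher in PABPC IP and 10 in PABPN IP, of fewer genes. With EPKM per TPM the counts were 19 and 17 (44.0% and 18.6% of PCGs), which turned the lean of 13 and 17. With EPKM itself centred on the median PCG they were 12 and 20. The cause of these shifts was not tested. Shares of PCGs were not counted for the 0.1 pseudocount, the TPM of 20, the threshold of 1, the overlaps or the centred EPKM. A paired analysis was not possible because the table holds 1 pooled value per gene and fraction. Counts of edits are unknown, so how far counting error limits low EPKM values could not be given.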
